A study of Mus musculus with 3 samples.

Results

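Dense chains of accessible regions were described in mouse mesenchymal stem cells (MSC), in which 265 stretches of chromosomes 1 to 19 held 6 or more regions in close succession. Members were chosen by position. The 47912 best-scoring summits of each library were widened by 250 bp on each side and merged over the 3 libraries, and regions were joined into a chain where the gap to the next was at most 5 kb. Of 46365 chains of any length, single regions included, 265 (0.572%) had 6 or more regions, and these held 1831 of the 67219 regions (2.72%). Because the summits of the 3 libraries chose the chains, their number, size and regions per library are a description of these libraries, and no test is attached to them.

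The regions come from ATAC-seq by the Omni-ATAC protocol, in which a transposase inserts adapters into open DNA, in cells of a study on heterotopic ossification, bone that forms in soft tissue. A single library was made from MSC before injury (day 0), 1 from MSC of the immobilized group at day 7 after injury, and 1 from MSC of the non-immobilized group at day 7 after injury. Strain, sex and age of the mice, the kind of injury, the means of immobilization, how the cells were isolated and whether animals were pooled are not stated in the labels. With 1 library per group, differences between conditions could not be set against replicate spread, and no test was run. Ranges in brackets after a percentage are 95% binomial intervals by the exact Clopper-Pearson method; they cover counting error only, and neighbouring regions of a chain are not independent of each other.

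The libraries held 143818952 to 176119937 read pairs, with an estimated 63640194 aligned pairs without duplicates at day 0, 75269683 in the immobilized and 90136518 in the non-immobilized library. All 10 MSC marker genes checked overlapped a region, among them Pdgfra, Prrx1 and Cd44, although the Lepr region was called only in the immobilized library and Ly6a had none in the non-immobilized one. The leukocyte markers Ptprc, Itgam, Cd3e and Adgre1 overlapped none. Markers of other cell types were also open: Pecam1, an endothelial junction gene, had 2, 5 and 10 regions and Cdh5 had 0, 3 and 7 at day 0, day 7 immobilized and day 7 non-immobilized. Kdr and Tek, receptor genes and the other endothelial markers checked, had 2, 3 and 2 and 5, 4 and 5 regions in the same order. Regions of the epidermal keratin genes Krt5 and Krt14, 1 each, were called only in the immobilized library. Cdh1 and Dsp, the other keratinocyte markers checked, had 1, 5 and 2 and 2, 5 and 2 regions in the same order, so they were called in every library. None of the marker genes lay in a dense chain.

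Open chromatin marks promoters, where transcription starts, and distal elements such as enhancers, which are bound by transcription factors and act on genes nearby or farther away. Many such elements are spread singly, but some genes, often those with cell-type-restricted expression or complex regulation, are surrounded by runs of elements that lie only a few kilobases apart. In mesenchymal cells such genes include regulators of matrix, cytoskeleton and growth factor signalling. A summit list shows where chromatin was open and says nothing on its own about which of these elements regulate a gene.

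Several chains held a gene start inside a called region, and the bases before such starts are shown for 6 genes of matrix, cytoskeleton, metal binding, vessel and adhesion biology, so that the different sequence make-up of the open promoters within chains can be seen. Each line gives the 250 bases before an annotated start, read 5′ to 3′ on the strand of the gene, from RefSeq on assembly GRCm38.p6. The motif to mark was chosen for each promoter after the matches of several genes and motifs had been seen, and the metal response element was added to the motifs after the metallothionein chain had been found, so a match here describes these letters and supports nothing. For the metallothionein genes Mt2 (chr8:94172368-94172617, plus strand) and Mt1 (chr8:94178839-94179088, plus strand), capitals mark the core of the metal response element, TGCACNC or TGCGCNC on either strand, with N any base.
Mt2: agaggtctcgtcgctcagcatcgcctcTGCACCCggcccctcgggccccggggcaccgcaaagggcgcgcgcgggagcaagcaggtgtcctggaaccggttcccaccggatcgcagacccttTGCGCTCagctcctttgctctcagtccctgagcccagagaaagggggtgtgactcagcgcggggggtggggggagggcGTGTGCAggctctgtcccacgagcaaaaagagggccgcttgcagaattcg
Mt1: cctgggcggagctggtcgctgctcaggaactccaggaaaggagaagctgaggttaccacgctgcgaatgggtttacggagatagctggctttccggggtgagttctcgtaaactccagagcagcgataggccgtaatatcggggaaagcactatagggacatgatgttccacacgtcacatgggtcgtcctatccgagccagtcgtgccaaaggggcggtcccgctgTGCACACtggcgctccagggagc
The Mt2 window held 3 matches, a number reached by 1.58% of all promoter windows of this length, and its start lay in a region called at day 0 and day 7 non-immobilized. The Mt1 window held 1 match, found in 24.7% of all windows, and its start was open in all 3 libraries. For Ajuba (chr14:54577662-54577911, minus strand), a LIM-domain protein of cell junctions and of the Hippo pathway, capitals mark GGAATG on either strand, the core of the TEAD motif.
Ajuba: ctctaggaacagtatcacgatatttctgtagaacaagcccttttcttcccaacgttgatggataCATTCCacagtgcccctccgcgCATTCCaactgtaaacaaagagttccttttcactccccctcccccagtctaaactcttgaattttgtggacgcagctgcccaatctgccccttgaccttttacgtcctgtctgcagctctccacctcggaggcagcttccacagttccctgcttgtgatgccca
Both matches read CATTCC here, on the opposite strand, and 0.846% of all windows held as many. Egfl7, a secreted factor of endothelial cells, has annotated starts that differ in base composition, shown upstream start first (chr2:26580833-26581082, then chr2:26586386-26586635, plus strand). Capitals mark the GC box GGGCGG on either strand, including overlapping copies.
Egfl7 upstream start: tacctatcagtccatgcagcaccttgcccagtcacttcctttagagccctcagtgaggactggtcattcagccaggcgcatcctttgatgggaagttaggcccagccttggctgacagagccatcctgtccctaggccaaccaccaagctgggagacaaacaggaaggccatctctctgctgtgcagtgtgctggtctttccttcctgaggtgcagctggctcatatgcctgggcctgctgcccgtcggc
Egfl7 downstream start: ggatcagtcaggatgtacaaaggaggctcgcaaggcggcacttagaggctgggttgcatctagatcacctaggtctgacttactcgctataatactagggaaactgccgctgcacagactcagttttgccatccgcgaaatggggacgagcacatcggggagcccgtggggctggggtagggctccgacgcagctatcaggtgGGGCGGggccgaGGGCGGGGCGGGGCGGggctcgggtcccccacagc
The upstream window had 3 CpG dinucleotides and no GC box, and its start was called in the non-immobilized library alone. The downstream window had 17 CpG and 4 GC boxes, and its start was called at day 0 and day 7 non-immobilized. Another Egfl7 start between them, not shown (chr2:26583615-26583864), had 7 CpG and no GC box and lay in no called region. For Hmcn2 (chr2:31314082-31314331, plus strand), which encodes a hemicentin of the matrix, and Cald1 (chr6:34709194-34709443, plus strand), which encodes the actin-binding protein caldesmon, capitals mark the AP-1 motif TGANTCA on either strand.
Hmcn2: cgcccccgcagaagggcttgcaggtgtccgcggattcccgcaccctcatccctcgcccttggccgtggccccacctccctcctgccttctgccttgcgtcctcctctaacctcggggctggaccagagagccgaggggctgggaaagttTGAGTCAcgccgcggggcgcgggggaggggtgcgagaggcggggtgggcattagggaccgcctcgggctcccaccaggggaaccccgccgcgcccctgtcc
Cald1: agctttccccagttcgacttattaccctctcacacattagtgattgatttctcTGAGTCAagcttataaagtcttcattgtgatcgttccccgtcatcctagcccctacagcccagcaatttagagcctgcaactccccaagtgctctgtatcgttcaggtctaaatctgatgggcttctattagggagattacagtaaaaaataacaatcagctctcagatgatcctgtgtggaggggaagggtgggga
Each held 1 AP-1 match, as did 6.18% of all windows, and both starts were open in all 3 libraries. The 2 windows differ in composition, with 22 CpG at Hmcn2 and 4 at Cald1.

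Across the chains, 114 windows of 95 genes had a start inside a called region. Their median was 16 CpG per window, against 17 for called starts outside the chains and 10 over all 20085 windows. A GC box was present in 67.5% of the chain windows, 64.0% of called windows outside and 43.4% of all windows. For the CCAAT box (CCAAT) the shares were 36.8%, 36.8% and 35.3%, and for the metal response element 34.2%, 32.2% and 24.7%. AP-1 was matched in 5.26%, 4.49% and 6.18%, TEAD in 7.89%, 9.97% and 11.5%, the RUNX motif TGTGGT in 8.77%, 9.75% and 12.2%, and the ETS motif CCGGAAG in 8.77%, 14.7% and 9.21%. For ETS, which of the 7 motifs differed most between open promoters inside and outside chains, the interval of the share inside (4.29 to 15.5, from 10 of 114 windows) included the share outside. Sequence away from gene starts was not analysed here.

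Chains ran from 6 to 13 regions: 142 had 6, 59 had 7, 36 had 8, 12 had 9, 9 had 10, 5 had 11, 1 had 12 and 1 had 13. Their span was 6.27 to 37.2 kb with a median of 15.5 kb, 51 chains exceeded 20 kb, and all together covered 4320 kb. Density was 0.268 to 0.957 regions per kb with a median of 0.428. By the rule no gap inside a chain exceeded the limit of 5 kb. Of the 1566 gaps the median was 1778.5 bp, 553 were under 1 kb and 144 over 4.5 kb. Just outside the threshold stood 382 chains of 5 regions, with a median span of 10.9 kb against 13.9 kb for the 142 chains of 6. A further region lay 5 to 5.5 kb beyond an end of 38 chains, so that a slightly larger limit would have lengthened these.

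**Figure D1:**
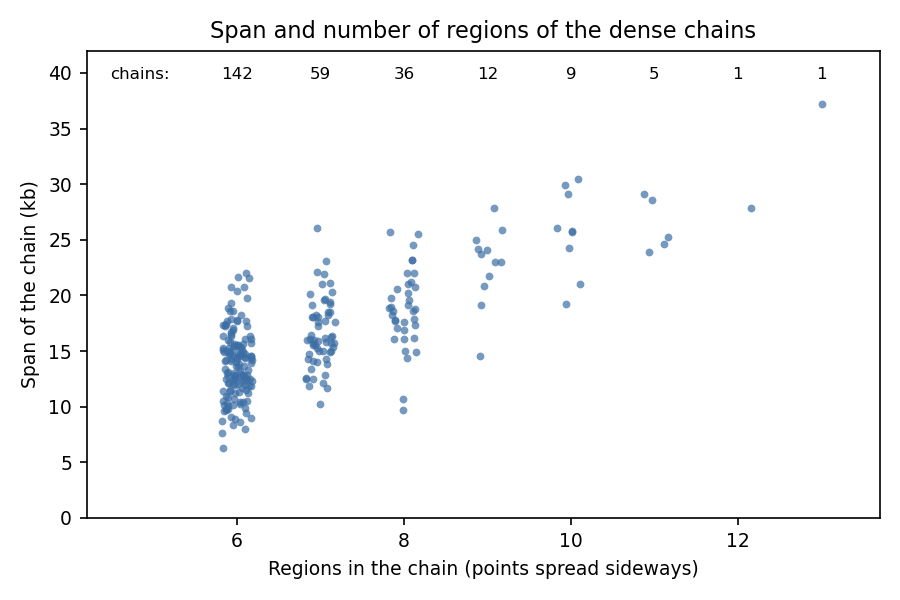
Span of each dense chain in kb (vertical axis) against its number of regions (horizontal axis, points spread sideways within a number); each point is 1 chain and the numbers on top count the chains. Most chains have 6 regions, and the single chain of 13 regions reaches 37.2 kb.

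The longest chain lay inside Synpo, which encodes the actin-associated protein synaptopodin (chr18:60620435-60657638). All 13 of its regions fell within the gene; 12 were called at day 0, 9 in the immobilized and 11 in the non-immobilized library, and 9 in all 3. The second, of 12 regions (chr18:61620398-61648293), overlapped no protein-coding gene but the long non-coding RNA genes Carmn and Bvht and the Mir145a gene, known from smooth muscle and heart cells, 30078 bp from Csnk1a1. Its regions numbered 7 at day 0, 8 with immobilization and 9 without. Both chains had most of their regions called before as well as after injury. The sizes depend on the settings: with summits widened by 100 bp the Synpo chain had 8 regions and a chain at Hmcn2 had 13, and with a gap of at most 2.5 kb the Synpo chain had 4.

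Of the 5 chains of 11 regions, 3 lay wholly inside 1 gene. Cubn, which encodes the endocytic receptor cubilin (chr2:13384863-13413947), had 5, 8 and 11 regions called at day 0, day 7 immobilized and day 7 non-immobilized. Col4a2, a collagen IV chain of basement membranes (chr8:11382331-11406196), had 5, 5 and 10, and Myh9, the heavy chain of non-muscle myosin IIA (chr15:77797917-77822575), had 5, 7 and 10. In each of these genes the non-immobilized library had the most regions and day 0 no more than the immobilized library. The other two did not share this order: the metallothionein chain with Mt1 and Mt2 (chr8:94171359-94199953) had 7, 8 and 7, and a chain 2401 bp from Spsb1, an adaptor of a ubiquitin ligase (chr4:149868665-149893882), had 7, 4 and 8.

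The 9 chains of 10 regions included Smad3, the signal transducer of TGF-beta receptors (chr9:63696592-63727032), with 6, 6 and 8 regions called at day 0, day 7 immobilized and day 7 non-immobilized, and Nfic, a nuclear factor I family member (chr10:81407483-81433309), with 9, 9 and 7. Loxl1, which crosslinks elastin (chr9:58289202-58315253), had 9, 4 and 6, and Mbnl2, a splicing regulator (chr14:120296219-120326117), had 5, 9 and 5. E2f2, a cell cycle transcription factor (chr4:136160064-136185771), had 4, 6 and 8. Plekha6, which encodes a pleckstrin homology domain protein (chr1:133217049-133246165), had 5, 6 and 2. Chains of equal length thus held any of the 3 libraries as the one with the fewest regions.

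**Figure D2:**
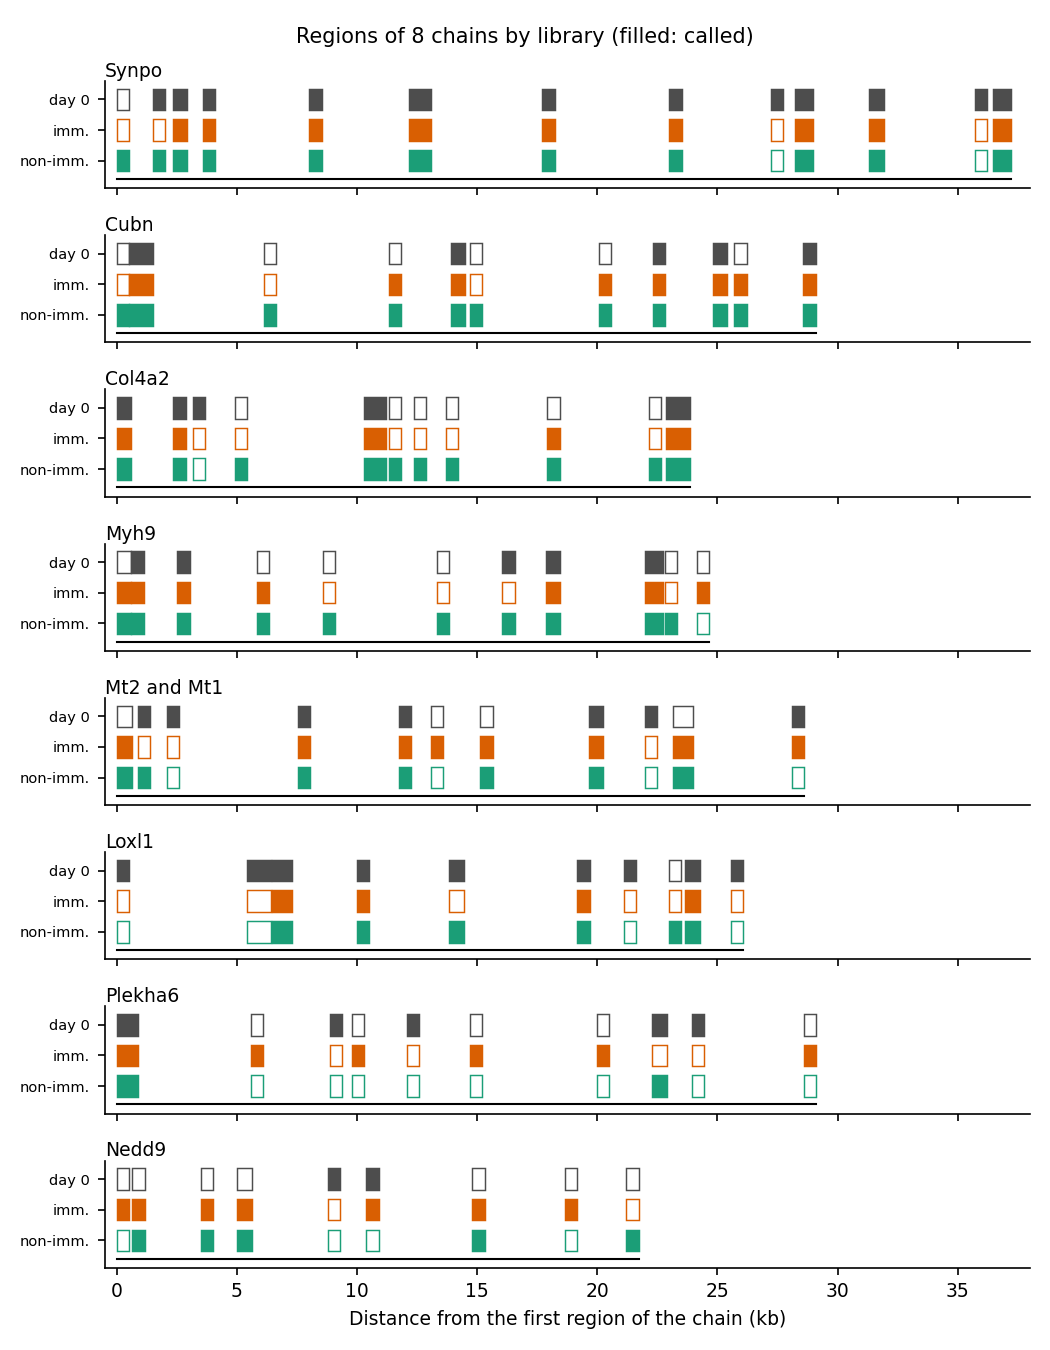
Position of the regions of 8 chains, in kb from the first region of the chain, with 1 row per library (imm., day 7 immobilized; non-imm., day 7 non-immobilized); filled boxes are regions called in the library, empty boxes regions called only in another. The chains were picked after their values had been seen: Synpo has 12, 9 and 11 of 13 places filled from the top row down, Cubn is complete at day 7 non-immobilized with 5 of 11 at day 0, Plekha6 has 2 of 10 at day 7 non-immobilized and Nedd9 has 2 of 9 at day 0.

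The chains with the most regions per kb were Marchf3, a ubiquitin ligase gene (chr18:56756002-56762269), with 6 regions in 6.27 kb, and Ajuba (chr14:54568942-54578603), with 8 regions in 9.66 kb. Ajuba had 7, 5 and 5 regions called at day 0, day 7 immobilized and day 7 non-immobilized, and Marchf3 had 4, 2 and 4. Arrb1, which encodes beta-arrestin 1 (chr7:99579443-99587086), had 6 regions in 7.64 kb, 1 of them called at day 0, 1 with immobilization and 5 without, and none in all 3. Rtn4rl2, a receptor of the Nogo receptor family, had 3, 4 and 4 of 6, and Rhof, a small GTPase gene, 7, 5 and 4 of 8.

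Chains were unevenly spread. Chromosome 11 had 35 chains with 4.86% of its regions, chromosome 3 had 4 with 0.800%. In 32 cases the next dense chain lay within 100 kb. The Col4a2 chain was preceded, after 5.74 kb, by another of 6 regions in the same gene, with 2, 3 and 4 called at day 0, day 7 immobilized and day 7 non-immobilized. A pair of chains each lay at Synj2 (5.23 kb apart), Rara (7.10 kb), Cd9 (7.46 kb), Pald1 (13.3 kb), Lrp1 (19.7 kb), Hmcn2 (48.3 kb) and Ahnak (54.9 kb), and Septin9, a cytoskeletal GTPase gene, held 3. On chromosome 12, 4 chains with 7, 6, 10 and 8 regions followed each other from Lrrc74a to Irf2bpl, a transcriptional regulator gene. The chain of 10 there (chr12:86816135-86837130) lay 43573 bp from Irf2bpl and had 5, 6 and 10 regions called, whereas that at Irf2bpl itself (chr12:86882616-86899939) had 6, 8 and 5.

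Of the 265 chains, 208 overlapped a protein-coding gene, 164 of them 1 gene and 44 more than 1, up to 4, and 85 lay wholly inside 1 gene. A total of 251 genes were held, 1.21% of the 20665 on these chromosomes. Their median length was 31.2 kb against 17.5 kb for all genes; length and the chance of holding a chain move together here, and the part of length was not tested. The best summit of a region lay inside a gene for 60.1% (57.8 to 62.4) of the chain regions and 54.3% outside. The remaining 57 chains overlapped no protein-coding gene, at a median distance of 19134 bp from the nearest, and 27 of these overlapped a long non-coding RNA gene. Among the largest of them, the chain 19009 bp from Rgs3 had 9 regions, of which 6, 6 and 8 were called at day 0, day 7 immobilized and day 7 non-immobilized, and the chain 106327 bp from Klf14 had 9, with 4, 7 and 7.

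Few of the chain regions lay near a gene start. On the 18 chromosomes with annotated starts in the sequence table (starts of chromosome 18 were not analysed here), 158 of 1769 chain regions lay within 1 kb of a protein-coding start, 8.93% (7.64 to 10.4), against 18.3% of the regions outside. The share was 19.95% for single regions and 12.6% in chains of 5. Of the 257 chains on these chromosomes, 93 had a gene start inside the chain, and 162 had no region within 1 kb of a start. Chain regions near a start were called in all 3 libraries in 63.9% (55.9 to 71.4), against 79.0% near starts outside, whereas chain regions away from starts were called in all 3 in 42.1% (39.7 to 44.5) against 36.9% outside. Near starts the share was 90.1% for single regions and 67.1%, 62.9%, 64.6% and 63.4% in chains of 2, 3, 4 and 5, so the dense chains had a share like that of shorter chains. Away from starts it was 36.1% for single regions and 40.4% in chains of 5.

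To see which functions the chains touched, 22 lists of genes were counted; 31 of their 497 genes were held by a chain. The lists hold many well-studied genes, chosen with earlier results of these data known, so their shares are not compared with the 1.21% of all genes by a test. Of 36 collagen and matrix genes 5 were held: Col4a2, Loxl1, Mmp14, a membrane-bound collagenase, Timp3, an inhibitor of metalloproteinases, and Adamts2, the procollagen N-proteinase. Of 32 focal adhesion and actin genes 4 were held: Pxn and Nedd9, scaffolds of focal adhesions, Actn4, an actin crosslinker, and Myh9. Of 43 mesenchymal and limb transcription factors 4 were held: Tbx15, Ebf3, Nfix and Nfic.

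Within the matrix list, Mmp14 had 4, 6 and 5 of 6 regions called at day 0, day 7 immobilized and day 7 non-immobilized, Timp3 had 5, 5 and 7 of 7 and Adamts2 had 5, 5 and 5 of 8. Within the adhesion list, Pxn had 5, 5 and 5 of 6, Actn4 had 3, 4 and 5 of 6, and Nedd9 (chr13:41331011-41352726) had 2, 7 and 5 of 9 with none in all 3. Ebf3 had 6, 4 and 7 of 8, Tbx15 had 6, 4 and 5 of 7 and Nfix shared its chain with Lyl1 and Trmt1, with 4, 4 and 4 of 6. Of the chains in this group, that at Nedd9 and the shorter one at Col4a2 had no region called in all 3 libraries.

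Signalling and response genes were also held. Of 33 BMP and TGF-beta genes 3 were: Smad3, Id1, a target of BMP signalling, and Ski, a repressor of Smad activity. The Id1 chain (chr2:152723748-152742904) had 5, 8 and 8 of 8 regions called at day 0, day 7 immobilized and day 7 non-immobilized, so all 3 regions missing at day 0 were present in both day 7 libraries. Of 20 YAP/TAZ and TEAD genes 2 were held, Ajuba and Wwtr1, which encodes the coactivator TAZ; Wwtr1 (chr3:57496356-57516629) had 5, 6 and 7 of 7. Of 30 AP-1 and immediate early genes 2 were, with Egr1 at 5, 3 and 4 of 6 and Ier2 at 6, 5 and 5 of 6. Sox6, a cartilage transcription factor, was the 1 held of 15 chondrogenic genes (6, 5 and 4 of 6), and Egr1 the 1 of 11 tendon genes. Of the Hox genes, which set position along the body, Hoxc8 and Hoxc9 shared a chain with 6, 4 and 4 of 6 regions called.

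Of 22 endothelial genes 3 were held. The chain at Sox18, a transcription factor of vessels (chr2:181670335-181680561), had 2, 4 and 7 of 7 regions called at day 0, day 7 immobilized and day 7 non-immobilized, that at Egfl7 (chr2:26561578-26587061) had 5, 3 and 7 of 8, and that at Ets1 had 2, 6 and 4 of 7. Dll4, a Notch ligand of vessels outside the lists (chr2:119311478-119327539), had 1, 4 and 7 of 7. Of the 4 endothelial markers, Pecam1 and Cdh5 had 10 and 7 regions at day 7 non-immobilized against 2 and 0 at day 0, while Kdr and Tek had as many at day 7 non-immobilized as at day 0 (2 and 5). The part of endothelial cells in these chains was not tested. Gapdh, a housekeeping gene, was held together with Iffo1 in a chain with 7, 5 and 6 of 8 regions called. No gene was held of the lists for osteogenic (16 genes), adipogenic (18), Wnt (31), inflammatory (31), cell cycle (21), keratinocyte (21), myeloid (17), lymphoid (16), smooth muscle and pericyte (14), skeletal muscle (16) and Schwann and nerve (11) genes; E2f2 was on none of the lists.

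**Figure D3:**
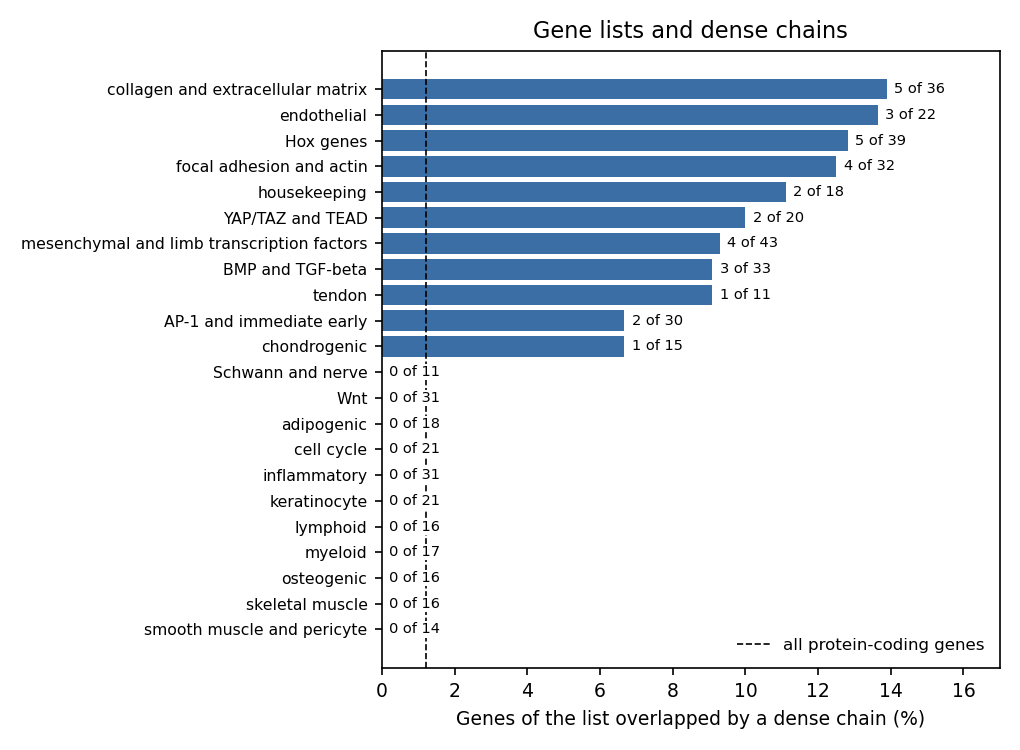
Percent of the genes of each list that a dense chain overlapped (bars, with the number held and the number of genes on chromosomes 1 to 19), and the percent over all protein-coding genes (dashed line, 1.21%). Bars reach 5 of 36 for collagen and matrix genes, and 11 of the lists have no gene in a chain.

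Chains also held 18 of the 919 microRNA hairpins of the sequence table (1.96%), in 10 chains. With the Mir145a gene of the chain near Csnk1a1, which is not among these 18, a microRNA gene was overlapped by 11 chains. Mature sequences of the better known ones are shown, since several sit in one chain and share a seed (bases 2 to 8, in capitals), the part that pairs with target transcripts. They were read from the RefSeq table on GRCm38.p6. The chain with Bcl6b, Slc16a13 and Rnasek on chromosome 11 held miR-195a and miR-497a, both of the seed AGCAGCA, and a chain near Ppara on chromosome 15 held let-7c and let-7b, both of the seed GAGGUAG. The chain at Zswim4 on chromosome 8 held the cluster of miR-23a, miR-27a and miR-24, of 3 different seeds, and that at Dnm1 on chromosome 2 held miR-199b.
mmu-miR-195a-5p: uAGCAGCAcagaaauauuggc
mmu-miR-497a-5p: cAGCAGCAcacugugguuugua
mmu-let-7c-5p: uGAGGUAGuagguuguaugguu
mmu-let-7b-5p: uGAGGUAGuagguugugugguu
mmu-miR-23a-3p: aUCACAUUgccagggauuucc
mmu-miR-27a-3p: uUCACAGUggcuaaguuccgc
mmu-miR-24-3p: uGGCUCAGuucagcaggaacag
mmu-miR-199b-3p: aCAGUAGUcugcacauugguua
The Bcl6b chain had 7, 5 and 8 of 10 regions called at day 0, day 7 immobilized and day 7 non-immobilized, that near Ppara had 4, 3 and 4 of 6, that at Zswim4 had 5, 6 and 6 of 7, and that at Dnm1 had 4, 3 and 6 of 6. All 4 chains had regions of each library. The 18 hairpins lay 109 to 1305 bp from the nearest of the summits used.

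Every one of the 265 chains held regions of all 3 libraries. A chain had 1 to 12 regions called at day 0, 1 to 9 in the immobilized and 1 to 11 in the non-immobilized library, with a median of 5 in each and means of 4.63, 4.65 and 5.14. Of the 1831 regions, 805 were called in all 3, 44.0% (41.7 to 46.3), against 44.5% outside the chains. In Plec, the gene of the cytoskeletal linker plectin, all 7 regions were called in every library, and in Glipr2 all 6. At the other end, 11 chains had no region called in all 3, among them Nedd9 and Arrb1. Pooled over all regions, shared calls were therefore about as frequent inside the chains as outside. Split by position they were not, with 63.9% against 79.0% near starts and 42.1% against 36.9% away from them. Single chains ranged from no region to every region shared, and how far counting alone gives such a range was not tested.

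The non-immobilized library was the one with most regions in 91 chains, day 0 in 56 and the immobilized library in 45, with ties in 73. It called 1363 chain regions, 74.4% (72.4 to 76.4) against 68.4% outside. The day 0 library called 1226, 67.0% (64.8 to 69.1) against 69.3% outside, and the immobilized library 1233, 67.3% (65.1 to 69.5) against 70.2%. Called in 1 library alone were 256 regions at day 7 non-immobilized, 13.98% (12.4 to 15.7) where the share over all regions was 10.6%. At day 0 alone 232 were called, 12.7% (11.2 to 14.3) where the share over all regions was 14.2%. At day 7 immobilized alone 157 were called, 8.57% (7.33 to 9.95) where it was 11.9%. A further 192 were called in both day 7 libraries but not at day 0, for which no share over all regions is given. With lists of equal length, the non-immobilized library thus had more of its regions in chains than the other two.

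**Figure D4:**
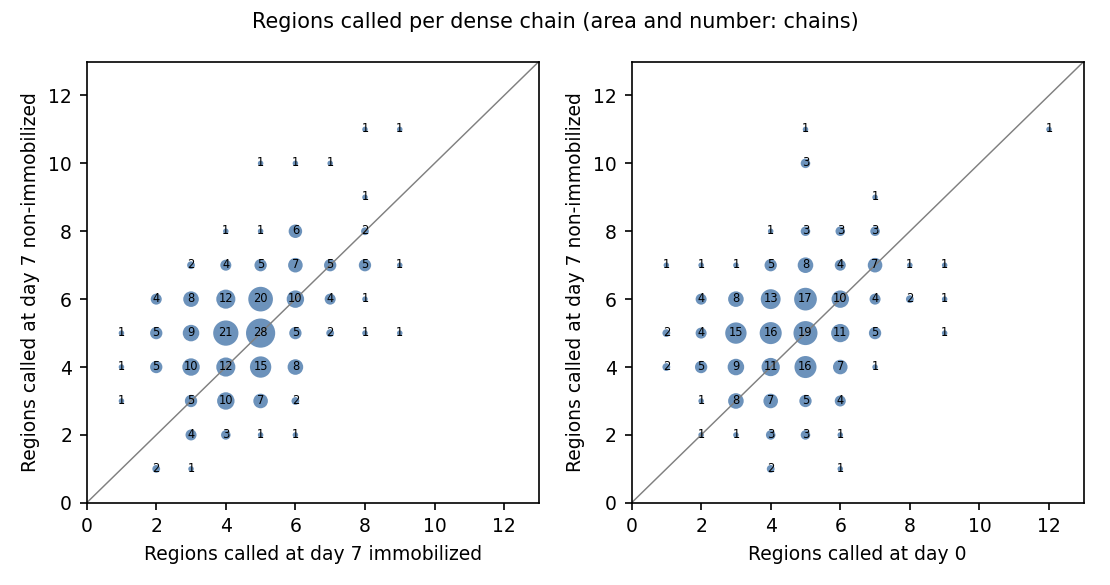
Number of regions called per dense chain in the day 7 non-immobilized library (vertical axis) against the day 7 immobilized library (left) and day 0 (right); circle area and the number in it count the chains, and the line marks equal numbers. More chains lie above the line than below it in both panels.

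Between the day 7 libraries, 366 of the 1599 chain regions called in either were called only without immobilization, 22.9% (20.9 to 25.0), where the share over all regions was 18.3%. Only under immobilization were 236, 14.8% (13.1 to 16.6), where the share over all regions was 20.1%. Of the regions called in 1 of the pair, the non-immobilized library therefore held 60.8% (56.8 to 64.7) in the chains and 47.3% outside. The share was higher in longer chains, with 42.3% for single regions, 55.3% in chains of 5, 59.9% in chains of 6 and 61.4% in chains of 8 or more. It was 59.7% away from gene starts and 74.4% (57.9 to 87.0) for the 39 such regions near a start, where it was 46.1% and 61.2% outside the chains.

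This lean depended on how deep each list was read. The immobilized list had 19492 further deposited summits of lower score, day 0 had 3810 and the non-immobilized list none. Of the 598 chain regions not called in the immobilized library, 238, or 39.8% (35.9 to 43.8), held such a summit, against 35.6% outside. Counting any deposited summit as a call, the non-immobilized share fell to 38.8% (34.5 to 43.3), below even, with 29.3% outside. The share inside was thus still higher than outside, while the side that held more regions changed. The chains themselves were chosen by the summits of these lists. Of the 265, 136 overlapped a chain built without the non-immobilized list, 185 without the immobilized list and 159 without day 0. The part of this choice in the difference between inside and outside was not tested. The lists also differed in spacing: 19.8% of the non-immobilized summits had another of the same list within 1 kb, 16.3% at day 0 and 12.1% in the immobilized list, and 86, 58 and 47 chains of 6 or more formed from each list alone. Lowest scores used were 1.33, 3.996 and 6.61 in that order. Closer summits, a lower score and a larger estimated depth move together with the lean to the non-immobilized library, and their part in it was not tested.

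Chains that leaned by 3 or more regions, a limit set after the data were seen, numbered 31 of 265 for the non-immobilized over the immobilized library (11.7%) and 6 for the reverse (2.26%). Over all chains of 3 or more regions the shares were 1.67% and 1.7%, but short chains can hardly reach such a difference; among the 382 chains of 5, there were 9 and 8. The 31 included Cubn, Col4a2, Myh9, Dll4, Sox18 and Egfl7, and Lama5, which encodes a laminin chain of basement membranes (chr2:180214493-180229079), with 3 of 9 regions called under immobilization and 7 without. With any deposited summit counted only 4 of the 31 kept a lead of 3 or more: the chains near Spsb1 (5 against 8 of 11) and near Irf2bpl (7 against 10 of 10), and, named after their values were seen, Plekho2 (3 against 6 of 8) and Kif26a (3 against 6 of 6). At Lama5 the immobilized count rose from 3 to 7, at Col4a2 from 5 to 8, at Sox18 from 4 to 6 and at Dll4 from 4 to 6.

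Among the 6 chains leaning to the immobilized library, by the best-scoring summits, were Plekha6 (6 against 2 of 10), Mbnl2 (9 against 5 of 10), Irf2bpl (8 against 5 of 8), Dst, a cytoskeletal linker gene (chr1:34139148-34151185; 6 against 3 of 6), and Reep3, a gene of the endoplasmic reticulum (chr10:67047534-67069551; 5 against 2 of 6). The non-immobilized list had no further summits to count, so counting any deposited summit could only raise the immobilized side in these chains.

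**Figure D5:**
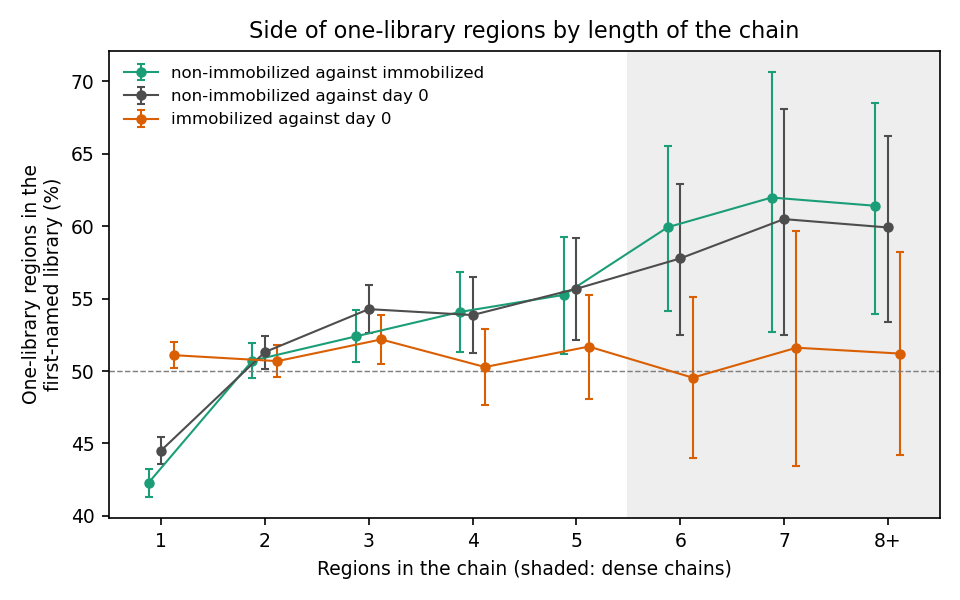
Percent of the regions called in 1 library of a pair that were called in the first-named library (vertical axis) by the number of regions in the chain (horizontal axis; shading marks the dense chains); points are shares over regions, bars exact 95% binomial intervals, and the dashed line 50%. Both lines of the non-immobilized library lie higher in the dense chains than in single regions, while that of the immobilized library against day 0 stays near 50%.

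The comparisons of the day 7 libraries with day 0 share the day 0 library and are given side by side. Against day 0, 448 of 1674 chain regions were called only at day 7 non-immobilized, 26.8% (24.7 to 29.0) where the share over all regions was 21.4%, and 311 only at day 0, 18.6% (16.7 to 20.5) where it was 22.2%. For the immobilized library, 349 of 1575 were called only at day 7, 22.2% (20.1 to 24.3) where the share over all regions was 22.6%, and 342 only at day 0, 21.7% (19.7 to 23.8) where it was 21.6%. The immobilized library and day 0 thus had shares in the chains close to those over all regions, while in the pair with the non-immobilized library day 7 was above and day 0 below them. Of regions called in 1 of the pair, day 7 held 59.0% (55.4 to 62.5) without immobilization (48.8% outside) and 50.5% (46.7 to 54.3) with it (51.1% outside). With any deposited summit counted these were 56.7% (46.5% outside) and 66.0% (63.8% outside).

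By single chains, 36 leaned by 3 or more regions to the non-immobilized library over day 0 (13.6%; 3.67% of all chains of 3 or more) and 14 to day 0 (5.28%; 1.72%), where chains of 5 had 34 and 12 of 382. To the immobilized library over day 0 leaned 22 (8.30%; 3.07%) and to day 0 over it 15 (5.66%; 2.02%), where chains of 5 had 21 and 18. The chain 36172 bp from Chd7, a chromatin remodeller gene (chr4:8904621-8917715), had 1, 5 and 4 of 6 regions called at day 0, day 7 immobilized and day 7 non-immobilized. That 23231 bp from Bach1, a heme-sensing transcriptional repressor gene (chr16:87654957-87675723), had 2, 6 and 4 of 6. Both had the fewest regions before injury, with day 0 counts that did not change with its lower-ranked summits.

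The opposite order, most regions at day 0, was seen at Clec3b, the tetranectin gene (chr9:123148375-123158054), with 6, 2 and 1 of 6, at Hmcn2 (chr2:31297770-31318588) with 9, 5 and 5 of 9, and at Pald1, a phosphatase-domain gene (chr10:61324682-61344379), with 6, 3 and 2 of 7. The chain 22764 bp from Prss23, a serine protease gene (chr7:89470453-89485019), had 6, 2 and 4 of 6. Counting any deposited summit adds none to the non-immobilized side, so the 14 chains leaning to day 0 over that library could not lose their lead. Of the 15 leaning to day 0 over the immobilized library 2 kept a lead of 3 or more on that count, Hmcn2 (9 against 6) and the chain near Prss23 (6 against 2). At Clec3b the immobilized count rose from 2 to 5 and at Pald1 from 3 to 5. Of the chains leaning away from day 0, 28 of 36 kept the lead of the non-immobilized library and 20 of 22 that of the immobilized library. This count adds 19492 summits to the immobilized list and 3810 to day 0, so it favours the immobilized library in that pair. Against day 0 it could only lower the lead of the non-immobilized library.

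Chain regions were not made of stronger or weaker summits by much. Ranked within its list from best (0%) to last (100%), the best summit of a chain region had a median rank of 50.05% at day 0, 53.2% with immobilization and 52.1% without, against 48.8%, 49.2% and 48.4% outside. A called chain region held 2 or more summits of its library in 3.263%, 1.87% and 3.96% of cases, against 2.84%, 1.66% and 3.83% outside. Chains differed in their best-ranked summit: in the chain of 10 near Irf2bpl it stood at 11.2%, 13.6% and 6.89% at day 0, day 7 immobilized and day 7 non-immobilized, and in Plekha6, also of 10 regions, at 54.0%, 55.8% and 66.4%.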

How the data were processed

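Groups were taken from the labels of 3 libraries, 1 per group. Per the submitters' processing notes, the build was mm10 and the tools were MACS2 2.1.2, Bowtie2 2.3.4.1, bedtools 2.28.0, edgeR 3.26.5, SAMtools 1.2, cutadapt, Picard, Trim Galore and FastQC; their parameters, any read shifting and the peak cutoff are not stated there. The authors called peaks in each library separately, as the deposited lists show. Column 5 of the deposited summit lists was read, by the MACS2 layout, as the −log10 of a p-value or q-value; which of them is not stated, and it only ranked summits within a list. Run statistics deposited by the authors give reads as counts and duplicates as a fraction. The deposited rate of alignment is in percent (90.9%, 92.5% and 89.9%). Aligned pairs without duplicates are the product of these and an upper estimate.

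The lists hold summits on chromosomes 1 to 19. Each was reduced to 47912 summits, the length of the shortest, which left out 3810 at day 0 and 19492 at day 7 immobilized. Overlapping and touching windows were merged. A library was said to call a region that held 1 of its summits; absence means that no summit passed. Gene positions, starts and sequences came from RefSeq GRCm38.p6, the assembly of mm10, and positions count from 1. Starts were used as given in the promoter table, for 16457 protein-coding genes, on both strands; a gene was held if its span overlapped a chain.

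Members and gene lists were chosen with earlier results of these data known. Chains named were the largest, longest and densest, those leaning most between libraries (per pair and direction the 4 with the largest difference of one-library regions, divided by the root of their sum), the largest without a gene, those called throughout, and the largest 2 per gene list, 47 in all; other chains and Dll4 beside the endothelial list were named as neighbours, miRNA or promoter holders. Alternatives were other gaps, widths and numbers of regions, stricter and deposited lists, calls by any deposited summit, each library left out and, added after the data were seen, each list alone. Values of some listed genes are not reported here. Chain building was tested on 300 simulated loci, of which 300 were recovered. Software was scipy 1.17.1, matplotlib 3.10.9, pandas 2.3.3 and numpy 2.4.6 under Python 3.11.15.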

Additional observations from a re-analysis of the deposited data

How the results depend on the processing

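The number of dense chains follows the settings closely. It was 265, and 12 with a gap of at most 2.5 kb, 1570 with 10 kb, 64 with 8 or more regions, 10 with the 23956 best summits of each list and 459 with the lists as deposited. Leaving out 1 library gave 140 to 195 chains: 166 without day 0, 195 without day 7 immobilized and 140 without day 7 non-immobilized. From 1 list alone, a setting added after the data were seen, 58, 47 and 86 chains formed. With windows of 100 and 500 bp there were 387 and 202. Of the 265 chains, 223 overlapped a chain built with 100 bp, 151 with 500 bp and 258 with the deposited lists. Of the 47 chains named by rule, 5 still had 6 or more regions with a gap of 2.5 kb, 40 with 100 bp, 29 with 500 bp, 1 with the 23956 best summits and all 47 with 10 kb or the deposited lists. The share of regions called in all 3 libraries, 44.0%, was 32.9% with 100 bp and 48.6% with 500 bp. It was 62.5% (49.5 to 74.3) with the 23956 best summits and 49.1% with any deposited summit. The share of the non-immobilized against the immobilized library, 60.8%, was 55.6% (35.3 to 74.5) with a gap of 2.5 kb. It was 54.1% (52.6 to 55.6) with 10 kb and 55.6% (21.2 to 86.3) with the 23956 best summits. It changed sides with the lists as deposited, 23.3%, and with any deposited summit, 38.8%. By their construction these 2 settings count 19492 more summits of the immobilized list and no more of the other. Against day 0 the share of the non-immobilized library, 59.0%, was 52.9% (35.1 to 70.2) with a gap of 2.5 kb. It was 50% (28.2 to 71.8) with the 23956 best summits and 53.2% (50.3 to 56.1) with the lists as deposited. That of the immobilized library, 50.5%, was 73.9% as deposited and 66.0% with any deposited summit. The cause of the other changes was not tested. No paired analysis was possible because each group has 1 library.

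The depth of each deposited list limits every count here: the authors' cutoff is not known, and the read signal of regions missing from a list was not analysed here. A chain is a run of called regions, so a broad open domain split into several summits and separate elements cannot be told apart.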
